A study of Mus musculus with 165 samples.

Results

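The circadian clock genes studied here were 10 mouse genes, taken by symbol from both count tables: Arntl (also named Bmal1), Npas2, Per1, Per2, Per3, Cry1, Nr1d1, Nr1d2, Dbp and Ciart. They were 10 of 55471 gene rows in each table, and all 10 passed the filter on low counts in both tissues. Brain and liver RNA of 83 male mice was sequenced, all of the inbred strain C57BL/6J/Ukj and untreated apart from being kept to grow old. Liver libraries came from 16 mice at 3 months, 16 at 9 months, 16 at 15 months, 17 at 24 months and 18 at 28 months. Brain libraries came from the same mice except 1 of 3 months, number 6, whose brain library is not analysed here, so there were 15 brains of 3 months, 16, 16, 17 and 18 at the later ages and 82 in all. A brain and a liver of the same age and number came from 1 mouse per the labels. Every library belonged to 1 of 3 labelled library preparations, called preps here, each with 4 to 7 libraries of every age and tissue. The groups cover 1 sex of 1 strain, and the time of day of tissue collection is not given in the sources used here. The RNA of these genes is known to cycle over the day, so a difference between ages and a difference in the hour of collection cannot be told apart in any comparison below. The same holds for differences between mice of 1 age, and so for the spread and the correlations below.

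The circadian clock is a feedback loop of transcription that runs in most cells. A pair of activators, BMAL1 (the product of Arntl) with CLOCK or its relative NPAS2, binds E-boxes and switches on the Per and Cry genes, whose proteins return to the nucleus and block the activators. A second arm runs through REV-ERBα and REV-ERBβ (Nr1d1 and Nr1d2), nuclear receptors that repress Arntl, and another through DBP, a factor that binds D-boxes. As a result the RNA of these genes rises and falls over the day, with Arntl and Npas2 high when Nr1d1, Dbp and the Per genes are low. The liver clock is known to follow feeding time as well as signals from the brain, where the suprachiasmatic nucleus holds the master clock and other regions keep clocks of their own.

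The promoter stretches below carry the letters through which the loop is known to act, and are shown because an E-box or D-box was found in them. They are read in the direction of the gene from the RefSeq windows of build GRCm38.p6, which span 250 bases before to 50 bases after a gene's start and exist for 9 of the 10 genes, with no entry for Per2. Capitals mark the E-box CACGTG, its variant CACGTT (written AACGTG where it lies on the opposite strand) or the D-box TTATGTAA.

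Ciart: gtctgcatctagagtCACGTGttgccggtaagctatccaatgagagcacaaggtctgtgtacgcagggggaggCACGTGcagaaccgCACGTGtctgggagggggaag

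Per3: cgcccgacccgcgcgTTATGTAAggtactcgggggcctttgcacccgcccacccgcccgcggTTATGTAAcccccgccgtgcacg

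Cry1: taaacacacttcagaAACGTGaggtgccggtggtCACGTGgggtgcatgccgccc

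Per1: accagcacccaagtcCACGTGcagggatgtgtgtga

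Nr1d1: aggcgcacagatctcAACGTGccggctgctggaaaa

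The Ciart stretch lies at chr3:95882252-95882359 on the minus strand, where the annotation also places the antisense gene C920021L13Rik. It held 3 copies of CACGTG, the most of any of these genes. The Per3 stretch, chr4:151044801-151044885 on the minus strand, lies within the Camta1 gene and held TTATGTAA at 2 places. The Cry1 stretch lies at chr10:85185094-85185148 on the minus strand and the Nr1d1 stretch at chr11:98775385-98775420 on the minus strand, both directly before their genes. The Per1 stretch, chr11:69098768-69098803 on the plus strand, is intronic to a longer Per1 transcript. None of these stretches covered an annotated exon. Both strands were searched for 6 motifs. CACGTG was found in the windows of 3 of the 9 genes (Per1, Cry1 and Ciart) and in 7.15% of all 32851 windows of the same length. CACGTT was found in 2 of 9 (Cry1 and Nr1d1) and in 4.68% of all windows, and TTATGTAA in 1 of 9 (Per3) and 0.938% of all. A motif read by ROR and REV-ERB receptors, TAGGTCA, was found in 1 of 9 (Arntl, just after the start) and in 2.61% of all windows. Its variant TGGGTCA and the cyclic AMP response element TGACGTCA were found in 0 of 9, against 3.98% and 1.79% of all windows. These matches describe the letters only, and other sites of the genes were not searched.

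Libraries held 11.5 to 73.4 M (mega) counts in the brain (median 37.6 M) and 5.82 to 57.5 M in the liver (median 32.9 M). A pair of brain libraries stood apart: that of 28 months replicate 15 had a median correlation of 0.852 with the other brains and that of 24 months replicate 13 one of 0.941, against 0.975 to 0.992 for the other 80. Their totals were 11.5 and 19.7 M counts, the lowest and the third lowest of the brains. Brain results for the clock genes are given with and without them where leaving them out changed a call. No liver stood apart in this way, with medians of 0.915 to 0.984. In each library the deviation of every gene from its median over libraries was also set against exonic length by rank correlation. That value ran from -0.164 to 0.391 in the brains of 3 months and from -0.286 to 0.155 in those of 28 months. The part of exonic length in the brain differences was not tested. Neuron markers (Snap25, Syt1 and Rbfox3) summed to 3494 to 4383 CPM (counts scaled to the same TMM-adjusted total in every library) in the brains of 3 months, and hepatocyte markers (Alb, Apoa1 and Serpina1a) to 49457 to 91322 CPM in the livers of that age. Hepatocyte markers summed to 0.174 to 0.542 CPM in the brains of 3 months and 0.388 to 21.6 CPM in those of 28 months, where the median was 0.658 CPM and the 1 marker tested was higher than at 3 months. Their part in the brain results was not tested.

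The question for each tissue was whether the clock genes differed between ages. In the liver few were called up to 24 months, and most at 28 months: between 28 and 3 months Per1, Per3, Nr1d2, Dbp and Ciart rose and Arntl, Npas2 and Cry1 fell. These 8 of 10 were called by edgeR's quasi-likelihood test at an adjusted p under 0.05, where 61.9% of all 15579 liver genes were called (31.9% higher and 30.0% lower). The median log2 fold change of the 10 genes was 0.77, beside 0.01 over all genes tested. Between 28 and 24 months, the last step alone, 8 were also called, 6 of them higher and 2 lower, against 15.3% of all genes. Between 24 and 3 months edgeR called 0 of 10, at a time when 49.0% of all genes were called, and 0 had an unadjusted p under 0.05, with 0 calls by DESeq2 or voom either. Many other liver genes thus differed at 24 months already, and these 10 were called only once 28 months was compared, apart from Per2 and Cry1 in single steps given below. The steps from 3 to 15 and from 9 to 15 months had 0 calls each by edgeR, against 7.32% and 0.0514% of all genes, with 0 at an unadjusted p under 0.05 and 0 by DESeq2 or voom. Over all ages together 9 were called, all but Nr1d1, against 71.5% of all genes.

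Arntl, the activator that the loop cannot run without (chr7:113207465-113314126, plus strand), had a lowest, median and highest level of 13.3, 29.9 and 35.6 CPM in the livers of 3 months. The medians of 9, 15 and 24 months were 26.7, 29.2 and 26.6 CPM. At 28 months the same 3 values were 1.67, 14.2 and 34.9 CPM. Of the livers of 28 months, 8 of 18 lay below every one of the 65 younger livers and the other 10 lay within the younger range. The gap between these 8 and 10 was 1.09 on the log2 scale, within a range of 4.33. A division into 2 sets was not tested. Arntl fell by 0.94 on the log2 scale between 3 and 28 months (SE 0.23, adjusted p 0.000243). Npas2, the partner that can stand in for CLOCK (chr1:39193731-39363236, plus strand), ran from 1.68 through a median of 9.27 to 14.5 CPM at 3 months and from 0.213 through 3.01 to 10.5 CPM at 28 months. It fell by 1.36 (SE 0.35, adjusted p 0.000643), with 8 of the livers of 28 months below every liver of 3 months. Both activators were at their highest among the livers of 28 months in replicate 10, at 34.9 and 10.5 CPM, which was also the lowest liver of that age for Per1, Per3, Nr1d1, Dbp and Ciart.

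Of the repressors, Per3 and Ciart rose most. Per3 (chr4:151003652-151044665, minus strand), a Period gene whose loss leaves the loop running, ran from 0.788 through a median of 1.68 to 8.57 CPM at 3 months. Its medians were 1.94, 2.43 and 2.79 CPM at 9, 15 and 24 months. At 28 months it ran from 2.43 through 15.0 to 98.3 CPM, and 10 of 18 livers exceeded every younger one. The log2 fold change between 28 and 3 months was 3.57 (SE 0.42, adjusted p 2.52e-11). Ciart (chr3:95878503-95882251, minus strand), which encodes the repressor CHRONO that binds BMAL1, was the lowest of the 10 per kilobase of exon in livers of 3 to 24 months, and 3 livers of 3 months and 2 of 15 months held 3 counts or fewer of it. It ran from 0.0635 through 0.277 to 1.92 CPM at 3 months and from 0.203 through 5.71 to 29.2 CPM at 28 months, where 8 of 18 livers exceeded every younger one. Its change was 4.03 (SE 0.57, adjusted p 6.75e-09).

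Per1 (chr11:69095217-69109960, plus strand), a Period gene that also responds quickly to light and stress hormones, had 2.19, 7.03 and 26.8 CPM as its lowest, median and highest level in the livers of 3 months. At 28 months these were 3.27, 30.0 and 86.3 CPM, with 6 livers above every younger one and a log2 fold change of 1.96 (SE 0.37, adjusted p 5.53e-06). Per2 (chr1:91415982-91459324, minus strand), a Period gene that the rhythm is known to need, ran from 3.30 through 9.78 to 29.5 CPM at 3 months and from 5.48 through 12.7 to 51.4 CPM at 28 months. The groups overlapped widely, though 5 livers of 28 months exceeded every younger one. The change of Per2 between 28 and 3 months, 0.45 (SE 0.26), did not pass the test at an adjusted p of 0.122, but it did without the liver of 3 months replicate 10 (0.57, adjusted p 0.0477) or replicate 16 (0.59, adjusted p 0.0430). It was also the 1 member whose direction differed between preps, at 1.11, 0.20 and -0.20 in preps 1, 2 and 3. Against 24 months, by contrast, Per2 rose by 0.96 (SE 0.25, adjusted p 0.00516). Per2 was the only one of the 10 called between 9 and 3 months, lower by a log2 fold change of -0.90 (SE 0.27, adjusted p 0.0343), where 4.69% of all genes were called. That call was lost without any 1 of the livers of 3 months replicates 10, 13, 15 and 16 or 9 months replicates 8 and 11. Cry1 (chr10:85131700-85185064, minus strand), a cryptochrome that blocks the activator pair, ran from 8.03 through 13.7 to 26.5 CPM at 3 months and from 4.26 through 8.27 to 20.6 CPM at 28 months. It fell by 0.54 (SE 0.18, adjusted p 0.00819), the one repressor to do so, with 6 livers of 28 months below every younger one. Cry1 was called between 24 and 15 months too (-0.47, SE 0.18, adjusted p 0.0379, against 36.0% of all genes), but not without any 1 of the livers of 24 months replicates 4, 5, 10, 11, 13 and 15 or 15 months replicates 2, 4 and 5.

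The nuclear receptors of the second arm had the highest liver levels of the 10 per kilobase of exon. Nr1d1 (chr11:98767932-98775333, minus strand) ran from 4.76 through a median of 39.8 to 251 CPM at 3 months and from 24.9 through 96.7 to 148 CPM at 28 months. All livers of 28 months lay within the younger range, and the difference, 0.46 (SE 0.39), did not pass the test (adjusted p 0.306). Nr1d2 (chr14:18204054-18239127, minus strand) ran from 11.6 through 36.2 to 105 CPM at 3 months and from 32.5 through 88.7 to 152 CPM at 28 months. It rose by 1.09 (SE 0.26, adjusted p 0.000256), and 3 livers of 28 months exceeded every younger one. Dbp (chr7:45705088-45710203, plus strand), a clock output factor that drives rhythmic genes of liver metabolism, ran from 0.657 through 1.12 to 58.1 CPM at 3 months and from 1.13 through 27.6 to 166 CPM at 28 months, where 7 livers exceeded every younger one. It rose by 2.91 (SE 0.71, adjusted p 0.000271), or by 3.86 without the liver of 3 months replicate 3, which held that age's highest Dbp and Nr1d1 and its lowest Arntl and Npas2. The annotation places 539 exonic bases of Dbp (18.0%) opposite Sphk2, and 263 of Nr1d1 (8.55%) opposite Thra. The sources used here do not state whether the counting used the strand, so reads of these stretches could belong to either gene. Sphk2 itself had a log2 fold change of -0.06 in the liver (adjusted p 0.634) and Thra one of -0.19 (adjusted p 0.0288). The part of overlapping reads in the values of Dbp and Nr1d1 was not tested.

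**Figure D1:**
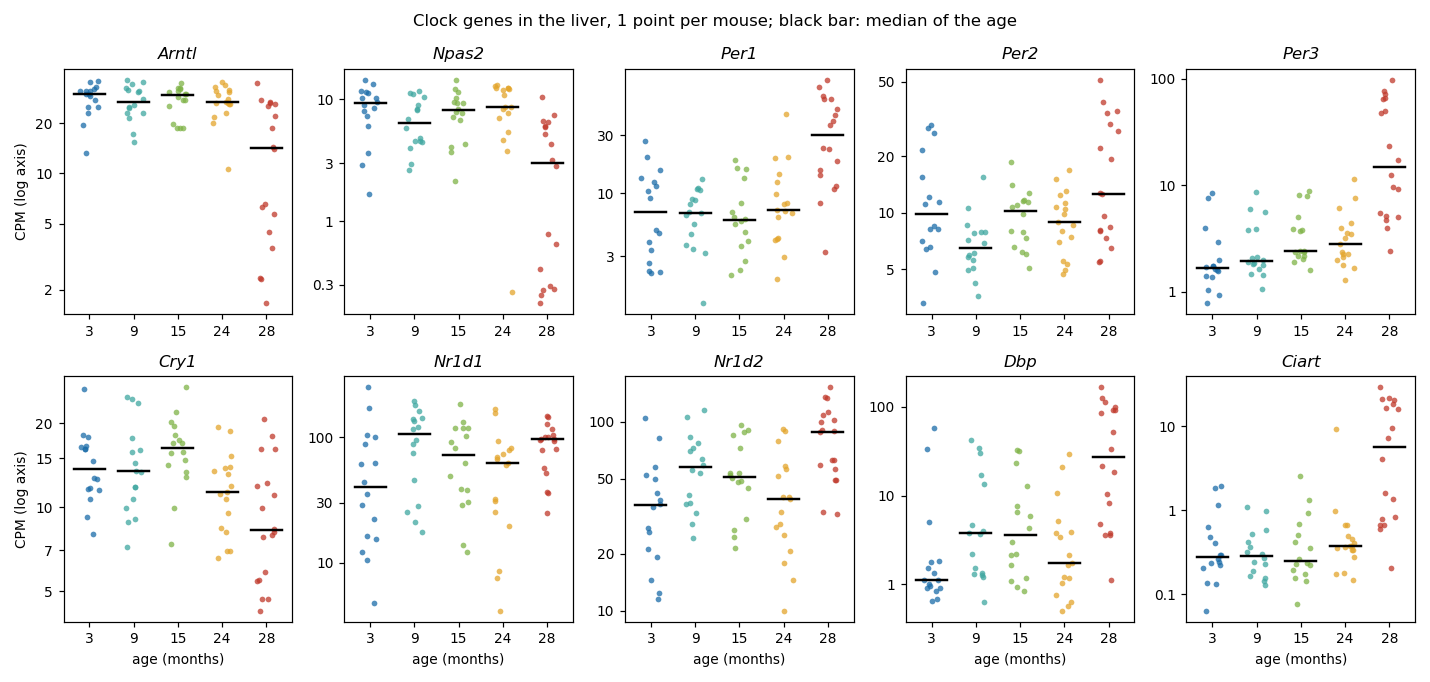
Level of each clock gene in every liver (CPM, log axis) by age in months, with 1 point per mouse and a black bar at the median of each age. The medians of Per1, Per3, Dbp and Ciart at 28 months stand above those of every younger age, and 8 livers of 28 months lie below every younger liver for Arntl.

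The livers that lay outside the younger range were largely the same ones. All 7 livers of 28 months above the younger range for Dbp were among the 8 below it for Arntl, as were all 5 for Per2, all 3 for Nr1d2 and both below it for Npas2. For Ciart this held for 7 of 8, for Per1 for 5 of 6, for Per3 for 8 of 10 and for Cry1 for 4 of 6. These sets were read from the values and are no groups of the study. The 8 livers with low Arntl were 5 of 7 libraries of 28 months in prep 1, 1 of 5 in prep 2 and 2 of 6 in prep 3. The change between 28 and 3 months of Arntl was -1.79, -0.47 and -0.62 in preps 1, 2 and 3, and that of Npas2 was -2.21, -0.61 and -1.37, and both passed in prep 1 alone (adjusted p 0.00215 and 0.0116). In preps 2 and 3 the adjusted p was 0.218 and 0.166 for Arntl and 0.413 and 0.0644 for Npas2. The fall of Cry1 too passed in prep 1 (-0.82, adjusted p 0.0298) and not in prep 2 (-0.23, adjusted p 0.626) or prep 3 (-0.56, adjusted p 0.175). For Per3 (3.91, 3.40 and 3.20) and Ciart (4.62, 3.87 and 3.59) the preps lay closer together, and both genes passed in each. Dbp rose by 3.43, 3.61 and 1.75 in preps 1, 2 and 3 and did not pass in prep 3 (adjusted p 0.263). Nr1d2 passed in prep 1 alone (adjusted p 0.017, then 0.154 and 0.0895 in preps 2 and 3). Per1 passed in preps 1 and 3 and not in prep 2 (adjusted p 0.0665). Among the 65 younger livers, 24 months replicate 5 held the lowest Arntl (10.6 CPM) and Npas2 (0.261 CPM). It also held the highest Per1 (44.8 CPM), Per3 (11.4 CPM) and Ciart (9.44 CPM). Its Npas2, Per1 and Ciart lay within the ranges of the 8 livers with low Arntl. Its Arntl lay above their range and its Per3 below. The brain of that mouse had the highest Ciart of all 64 younger brains, at 11.2 CPM. The highest Dbp of the 65 was in another liver, 3 months replicate 3, and lay within the range of the same 8.

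The brain showed smaller differences, and some of the same genes. Between 28 and 3 months Per1, Cry1, Nr1d1, Dbp and Ciart rose and Arntl fell. These 6 of 10 compare with 28.3% of all 18711 brain genes called (16.3% higher and 12.0% lower), and the median log2 fold change was 0.16 over the 10 genes and 0.01 over all genes. Without the 2 brain libraries that stood apart 9 of 10 were called, all but Npas2, against 34.1% of all genes. In the steps from 3 to 9, 15 and 24 months, from 9 to 15 and from 15 to 24 months edgeR called 0 of 10 each, against 0.315%, 0.871%, 10.1%, 0% and 0.732% of all genes. Over these 5 steps 1 gene, Per2, had an unadjusted p under 0.05, from 3 to 24 and from 15 to 24 months. DESeq2 made 0 calls in each of them, and voom 1, from 3 to 24 months. Without brain 28 months replicate 15, Per2 was called by edgeR from 3 to 24 months (-0.23, adjusted p 0.0135). Over all ages together 6 of 10 were called, against 20.6% of all genes. Of these Per1 was lost without any 1 of the brains of 28 months replicates 12, 13 and 17 and Nr1d1 without any 1 of replicates 9, 11, 12, 13, 16 and 18, while leaving out replicate 15 added Per2, Per3 and Nr1d2. Without both libraries that stood apart 8 were called, all but Npas2 and Per2, against 30.3% of all genes.

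Ciart changed most in the brain. Its lowest, median and highest levels were 6.36, 7.80 and 9.00 CPM in the brains of 3 months and 6.65, 13.2 and 19.8 CPM at 28 months. Of the 18 brains of 28 months, 10 exceeded every one of the 64 younger brains. It rose by 0.73 on the log2 scale (SE 0.10, adjusted p 3.4e-08) and was the only gene of the 10 called between 28 and 24 months (0.53, SE 0.10, adjusted p 0.0017), where 1.09% of all genes were called. Without the 2 libraries that stood apart that step had 5 calls, Arntl, Nr1d1, Nr1d2, Dbp and Ciart, against 3.58% of all genes, and without brain 28 months replicate 15 alone it also had 5, with Per1 in place of Dbp. Per1 was further called in this step without any 1 of the brains of 28 months replicates 2, 5, 8, 10 and 14, Nr1d1 without replicate 10 and Dbp without brain 24 months replicate 13.

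Dbp ran from 37.2 through 48.3 to 60.8 CPM in the brains of 3 months and from 44.1 through 58.2 to 126 CPM at 28 months, with 1 brain above every younger one. That brain was replicate 15, and without the 2 libraries that stood apart the rise was 0.34 (adjusted p 0.000957) in place of 0.43 (SE 0.11, adjusted p 0.00142). Arntl ran from 28.0 through 32.8 to 35.5 CPM and from 8.50 through 27.1 to 37.0 CPM, with 10 brains of 28 months below every brain of 3 months. The lowest was again replicate 15, followed by one at 23.4 CPM. Arntl fell by 0.26 (SE 0.07, adjusted p 0.00291) and still differed without these libraries, at -0.20 (adjusted p 0.000225). Ciart differed by 0.27 and 0.60 in preps 2 and 3 and by more in prep 1. In preps 1, 2 and 3 Dbp differed by 0.56, 0.12 and 0.54 and Arntl by -0.24, -0.13 and -0.39. All 3 genes passed in prep 1 and none in prep 2. In prep 3 only Ciart passed (edgeR adjusted p 0.0393), with Dbp at 0.0658 and Arntl at 0.164.

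Cry1 rose in the brain, the opposite of its change in the liver. It ran from 11.1 through 12.2 to 14.5 CPM at 3 months and from 10.1 through 13.8 to 22.1 CPM at 28 months, a change of 0.22 (SE 0.07, adjusted p 0.0132), with 0.40, 0.014 and 0.20 in preps 1, 2 and 3. Per1 ran from 59.1 through 72.4 to 106 CPM and from 60.8 through 90.4 to 121 CPM, a rise of 0.19 (SE 0.07, adjusted p 0.0268). That call was lost without brain 3 months replicate 12 or 28 months replicate 12. Nr1d1 ran from 74.7 through 84.7 to 105 CPM and from 74.7 through 98.6 to 141 CPM, a rise of 0.20 (SE 0.06, adjusted p 0.0131). Neither Per1 (-0.0055) nor Nr1d1 (-0.026) was higher at 28 months in prep 2. Per1 passed in no single prep, and Cry1 and Nr1d1 passed in prep 1 only (edgeR adjusted p 0.0466 and 0.016). Per2 had a difference of -0.21 (SE 0.09, adjusted p 0.0517) with medians of 39.8 and 34.8 CPM. It passed the test without any 1 of 12 brains: 3 months replicates 1, 8, 9 and 15, 9 months replicate 14, 15 months replicate 15, 24 months replicate 13, and 28 months replicates 7, 11, 12, 13 and 16. Per3, Nr1d2 and Npas2 did not pass, with differences of 0.07, 0.12 and 0.01 (adjusted p 0.599, 0.243 and 0.909). Without the 2 libraries that stood apart the first 2 of these were called, Per3 at 0.14 (adjusted p 0.0325) and Nr1d2 at 0.17 (adjusted p 0.0179), and Nr1d2 was called without replicate 15 alone. Sphk2, which overlaps Dbp, was lower in the brains of 28 months by a log2 fold change of -0.23 (adjusted p 0.0037), and Thra had one of 0.13 (adjusted p 0.0778). Without the 2 libraries that stood apart these were -0.31 (adjusted p 2.23e-07) and 0.15 (adjusted p 0.018).

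**Figure D2:**
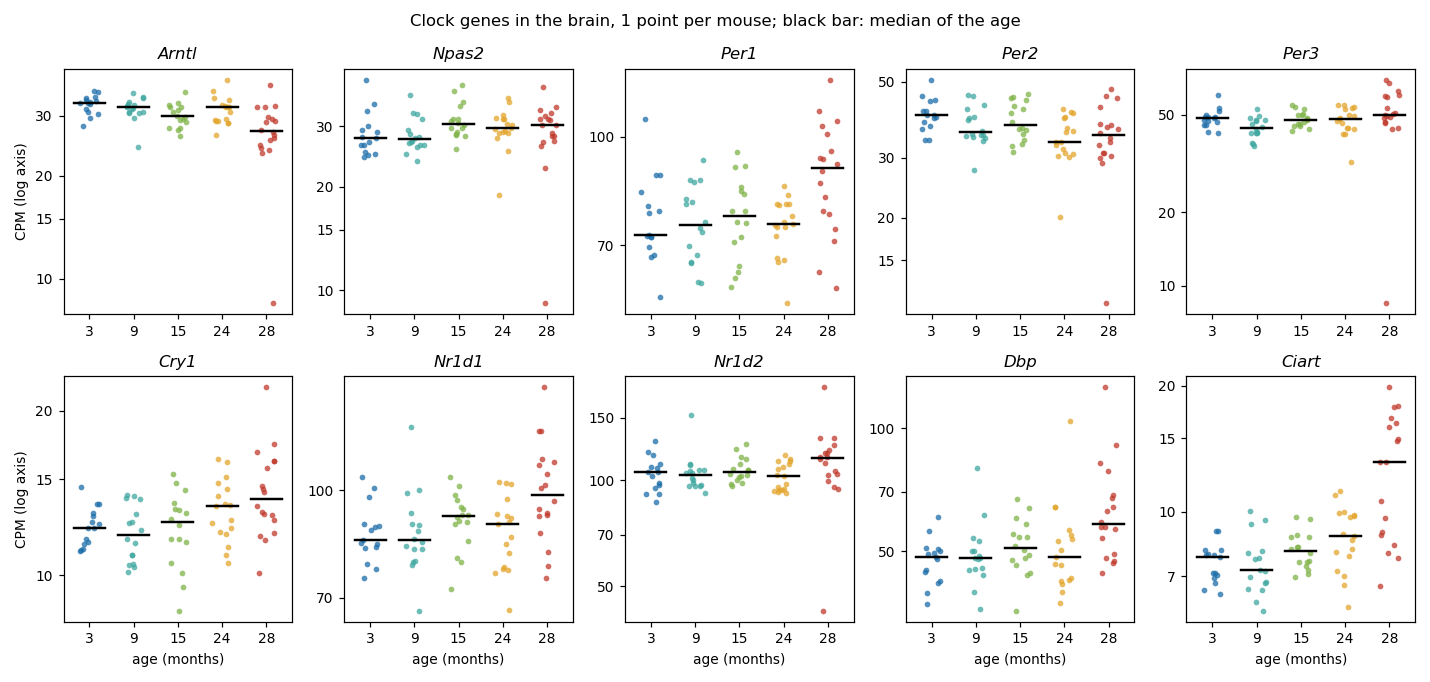
Level of each clock gene in every brain (CPM, log axis) by age in months, with 1 point per mouse and a black bar at the median of each age. Ciart lies above every younger brain in 10 of 18 brains of 28 months, and the lowest point of Arntl, Npas2, Per2, Per3 and Nr1d2 at that age is 1 library, replicate 15.

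Per length, the order of the genes differed between the tissues. In the brains of 3 to 24 months the median was 28.8 CPM per kilobase of exon for Nr1d1, 19.2 for Nr1d2, 16.2 for Dbp and 13.4 for Per1. Per2 (6.29), Npas2 (6.04), Per3 (4.94), Arntl (4.21), Cry1 (3.72) and Ciart (3.48) followed. The lowest brain of Per1 (10.3) lay above the highest of Per2 (8.66), and all other neighbours in this order overlapped in range. In the livers of those ages the median was 20.4 CPM per kilobase for Nr1d1, 8.29 for Nr1d2, 4.04 for Cry1 and 3.80 for Arntl, and the ranges of all neighbours overlapped. Npas2 (1.75), Per2 (1.40), Per1 (1.22), Dbp (0.621), Per3 (0.227) and Ciart (0.139) came last, so that Dbp held the third place in the brain and the eighth in the liver. In the livers of 28 months Dbp took the third place too, at 9.22 CPM per kilobase after Nr1d1 (31.4) and Nr1d2 (16.4), and Npas2 was last at 0.627. From 3 to 24 months the ratio of the highest to the lowest liver was 114 for Dbp, 60.8 for Nr1d1, 55.6 for Npas2, 36.1 for Per1 and 14.4 for Per3, and that of the brains was 2.92 for Dbp and 1.87 for Per3. For Ciart no ratio is given, since its lowest liver held 2 counts. In bulk RNA, fewer cells of a type and less RNA per cell cannot be told apart.

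Whether the age change itself differed between the tissues was tested in 1 fit of both. It differed for 9 of 10 genes, all but Nr1d1, where 49.2% of all 14035 genes tested in both tissues were called. The liver change exceeded the brain change from 3 to 28 months by 3.55 on the log2 scale for Per3 (SE 0.40, adjusted p 1.2e-13), 3.35 for Ciart (SE 0.51, adjusted p 1.72e-08) and 2.52 for Dbp (SE 0.66, adjusted p 0.00085). Smaller excesses were found for Per1 (1.81, SE 0.37, adjusted p 1.34e-05), Nr1d2 (1.01, SE 0.28, adjusted p 0.00133) and Per2 (0.71, SE 0.27, adjusted p 0.022). For the 3 genes that fell in the liver the liver change lay below that of the brain, by -1.34 for Npas2 (SE 0.35, adjusted p 0.000806), -0.72 for Cry1 (SE 0.20, adjusted p 0.00146) and -0.65 for Arntl (SE 0.24, adjusted p 0.0185). Nr1d1 had a difference of 0.30 (SE 0.40, adjusted p 0.557). Without the 2 brain libraries that stood apart the count was 9 as well.

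The same fit gave the difference between the tissues at each age. At 3 months 8 of 10 genes differed between liver and brain, against 88.6% of all genes. Per3 (-3.42), Ciart (-2.82), Per1 (-2.43), Dbp (-2.10), Npas2 (-1.25), Nr1d2 (-0.85) and Per2 (-0.83) were lower in the liver on the log2 scale, and Cry1 (0.78) was higher. At 28 months only 2 of 10 differed, Npas2 (-2.59, adjusted p 3.07e-15) and Per1 (-0.61, adjusted p 0.0367), while 88.9% of all genes did. The liver thus lay below the brain for 7 of these genes at 3 months and for Npas2 and Per1 at 28 months, and the other 8 missed the threshold at that age.

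**Figure D3:**
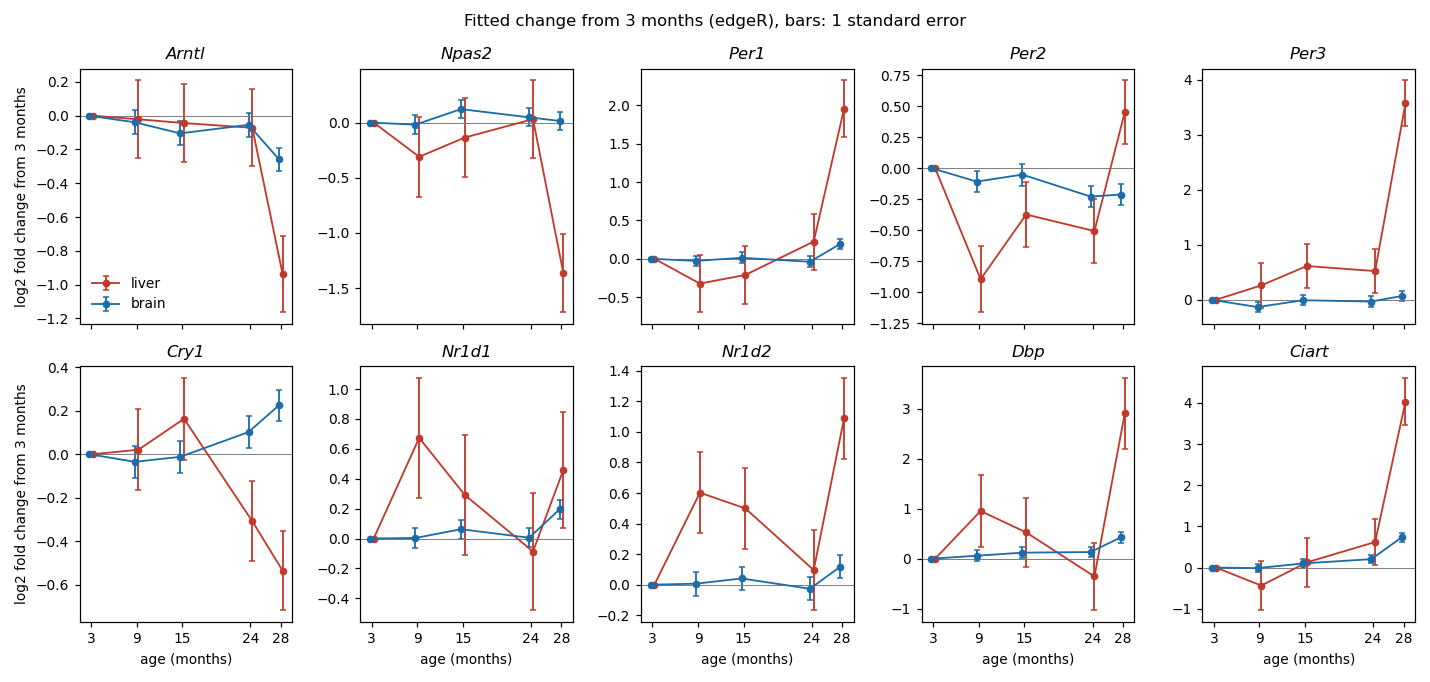
Fitted log2 fold change of each clock gene from 3 months (edgeR) against age in months, for liver (red) and brain (blue), with bars of 1 standard error and an axis scaled to each gene. The liver line leaves the brain line at 28 months for Per1, Per3, Dbp and Ciart, reaching 4.03 for Ciart, and Cry1 ends lower in the liver and higher in the brain.

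Mice of 1 age also differed from one another, and in the liver the size of that spread was itself compared between ages. The standard deviation of log2 CPM between mice differed by age for 4 of 10 liver genes (limma test of absolute deviations from the age median), against 5.22% of all genes. For Arntl it was 0.40, 0.47, 0.35, 0.38 and 1.35 at 3, 9, 15, 24 and 28 months (adjusted p 9.6e-07). For Ciart it was 1.17, 0.92, 1.18, 1.19 and 2.18 (adjusted p 0.00856), for Npas2 0.88, 0.78, 0.74, 1.25 and 1.93 (adjusted p 0.0136) and for Per3 0.93, 0.94, 0.82, 0.76 and 1.69 (adjusted p 0.032). Each of the 4 was thus most uneven between mice at 28 months. Nr1d1 had the opposite order, 1.57 at 3 months and 0.69 at 28 months, and did not pass (adjusted p 0.269). Dbp was about as uneven at every age, from 1.68 to 2.11 (adjusted p 0.649). In the brain limma called 0 of 10 genes and 0 of all genes, with Ciart alone at an unadjusted p under 0.05 (0.000219) and a standard deviation of 0.19, 0.25, 0.16, 0.25 and 0.46. With deviations taken from the age mean Ciart was called in the brain (adjusted p 0.00572), against 0.0321% of all genes, and in the liver 5 of 10 genes were called, the same 4 and Per2 (adjusted p 0.0158), against 21.9% of all genes in place of 5.22%. The brain spread of Arntl at 28 months was 0.44 with and 0.17 without the 2 libraries that stood apart.

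Since brain and liver came from the same mice, it could be asked whether a mouse high in one tissue was high in the other. Levels were compared as deviations from the age and prep means, over the 64 mice of 3 to 24 months. Those of 28 months were left out since 8 of their 18 livers lay below every younger one for Arntl. Of 10 genes 5 were correlated by a two-sided permutation test within age, against 3.89% of all genes tested, and 10 relations were computed among the members. Cry1 had r = 0.52 (permutation p 3e-05, adjusted p 0.00458) and rho = 0.52 (adjusted p 0.00877), and r = 0.56 without the 2 mice farthest from the median. Arntl had r = 0.46 (permutation p 0.00018, adjusted p 0.013) and rho = 0.44 (adjusted p 0.041), and r = 0.39 without the 2 farthest. Both genes are core parts of the loop, and neither relation rested on the 2 farthest mice. Nr1d1 had r = 0.44 (permutation p 0.00029, adjusted p 0.017) and rho = 0.49 (adjusted p 0.00714), and 0.46 without the 2 farthest. Dbp had r = 0.40 (permutation p 0.00095, adjusted p 0.0331) and rho = 0.49 (adjusted p 0.0114), and 0.53 without the 2 farthest. Within preps 1, 2 and 3 the r of Cry1 was 0.33, 0.46 and 0.67, of Arntl 0.26, 0.72 and 0.45, of Nr1d1 0.37, 0.48 and 0.43 and of Dbp 0.32, 0.50 and 0.51, all of them positive. Without brain 24 months replicate 13 these 4 were called, against 1.56% of all genes, at r = 0.55, 0.45, 0.45 and 0.44.

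Per2 was the fifth, and its call was lost without 1 library. It had r = 0.38 (permutation p 0.00092, adjusted p 0.0326) and rho = 0.37 (adjusted p 0.112), and r = 0.30 without the 2 mice farthest from the median. Without brain 24 months replicate 13 its r was 0.34 (adjusted p 0.131), and within preps 1, 2 and 3 it was 0.08, 0.58 and 0.18. The remaining 5 genes did not pass, with r of 0.26 for Ciart, 0.15 for Per3, 0.06 for Per1 and Npas2 and 0.02 for Nr1d2. Nr1d1 and Nr1d2, receptors with overlapping roles, thus stood at 0.44 and 0.02, a difference that was not tested. Over all 82 mice the same test called 4 genes, Cry1, Nr1d1, Dbp and Ciart, against 1.93% of all genes. Without the 2 brain libraries that stood apart, over 80 mice, it called 6, against 2.83% of all genes, with Per2 (r = 0.46, permutation adjusted p 0.00351) and Per3 (r = 0.50, permutation adjusted p 0.00351) added. These r pool the younger livers with those of 28 months, of which 8 lay below the younger range for Arntl. Among the 17 mice of 28 months without replicate 15 the 1 gene called was Per3 (permutation p 1e-05, adjusted p 0.0187), against 0.385% of all genes, and it was not called with that mouse included. Its r pools livers of 28 months inside and below the younger range for Arntl and is not given.

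**Figure D4:**
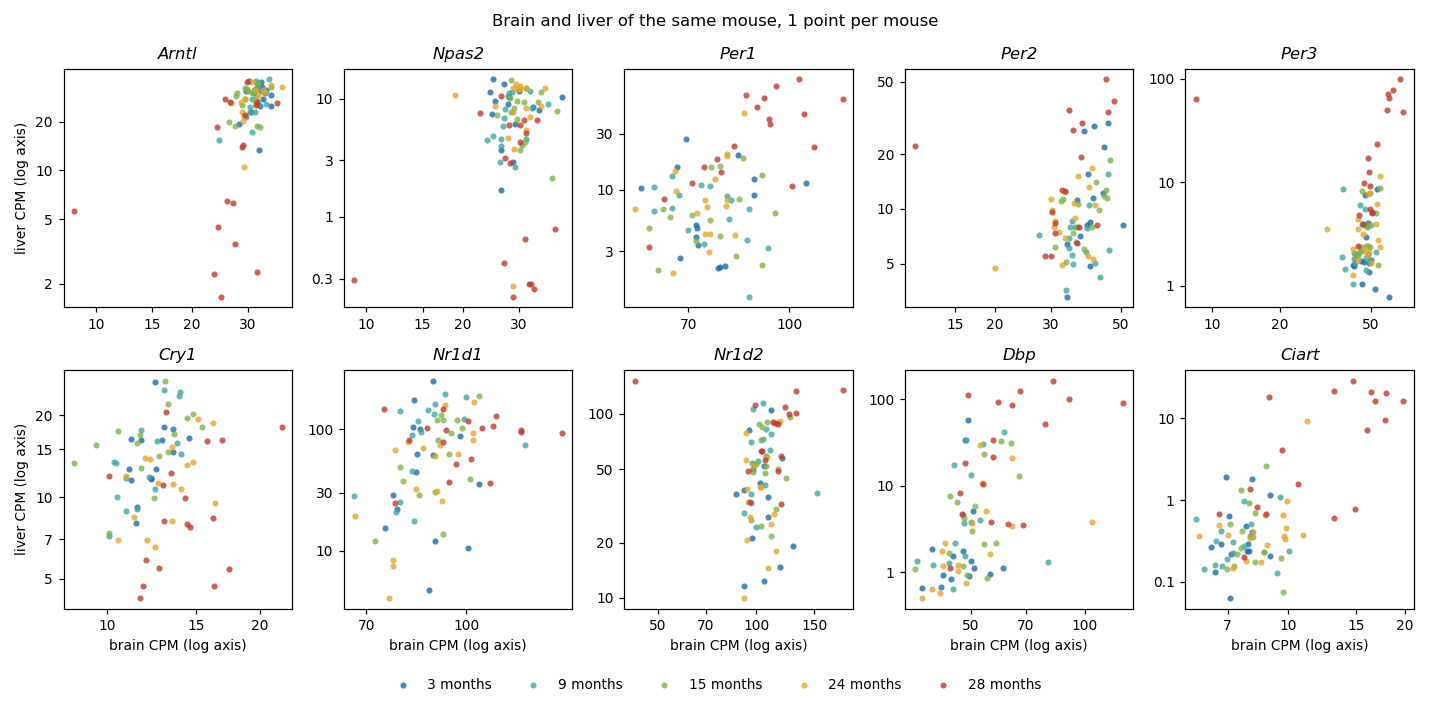
Level of each clock gene in the liver against that in the brain of the same mouse (CPM, both axes log), 1 point per mouse of the 82 with both tissues, coloured by age in months. Cry1 rises along the diagonal in mice of 3 to 24 months (r = 0.52 with age and prep removed), and 8 livers of 28 months lie low for Arntl, 1 of them with the lowest brain too.

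Within the liver the genes varied together from mouse to mouse, and the hour of collection of each mouse is not given in the sources used here. Over the 65 livers of 3 to 24 months 34 of 45 pairs were correlated, with age and prep removed, 17 positively and 17 negatively, where 7.55% of all pairs of a clock gene with any liver gene passed. The activators ran together, Arntl with Npas2 at r = 0.90 (rho = 0.79, and r = 0.86 without the 2 livers farthest from the median). The receptors did so too, Nr1d1 with Nr1d2 at r = 0.93 (rho = 0.92, and 0.92 without the 2 farthest), as did Per3 with Dbp at r = 0.89 (rho = 0.75, and 0.87) and Nr1d2 with Dbp at r = 0.84 (rho = 0.86, and 0.83). The 2 groups ran against each other: Arntl with Dbp had r = -0.82 (rho = -0.72, and -0.81 without the 2 farthest), Arntl with Ciart -0.80 (rho = -0.61, and -0.70) and Npas2 with Dbp -0.77 (rho = -0.75, and -0.81). Each of these 7 pairs had a permutation p of 1e-05, the smallest that 100000 permutations can give, and an adjusted p of at most 0.00503. In preps 1, 2 and 3 alone Arntl with Npas2 had r = 0.93, 0.86 and 0.94 and Arntl with Dbp -0.73, -0.84 and -0.89, so both kept their sign in each prep. Within a single prep only Arntl with Npas2 in prep 2 passed (permutation adjusted p 0.0487), and none of the 45 pairs did in preps 1 and 3. With Arntl, Npas2, Per1 and Per2, 0 of all 15578 liver genes tested passed in prep 1. Cry1 went with the activators (0.64 with Arntl and 0.61 with Npas2) and against Dbp (-0.60), and was apart from the other repressors in that. Per2 passed with none of the other 9 genes, at r of -0.36 to 0.19.

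In the brain the pattern was another one. Over the 63 brains of 3 to 24 months, without replicate 13 of 24 months, 8 of 45 pairs were correlated, all positively, where 16.4% of all pairs of a clock gene with any brain gene passed. The share of member pairs was near that background. Nr1d1 went with Dbp at r = 0.72 (rho over the 64 brains with replicate 13, 0.62), and Per1 with Per2 at r = 0.64 (rho 0.66). Both Nr1d1 and Dbp went with Ciart, at r = 0.61 and 0.60 (rho 0.57 and 0.59). The other 4 pairs paired Npas2 with Nr1d1 (0.61), Ciart (0.47), Nr1d2 (0.43) and Dbp (0.33, adjusted p 0.0467, and adjusted p 0.172 with replicate 13 included). The first 4 pairs named had r of 0.40 to 0.80 within single preps, and over the 64 brains without the 2 farthest from the median 0.48, 0.71, 0.60 and 0.56. Of the 8 brain pairs 7 were also correlated in the liver, and 4 of these were negative there, each of them with Npas2. Arntl with Npas2 had r = -0.18 in the brain, and Nr1d1 with Nr1d2 0.05, neither past the test (adjusted p 0.405 and 0.8). The 2 closest pairs of the liver were thus not detectable in the brain, and the difference between the tissues was not tested.

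**Figure D5:**
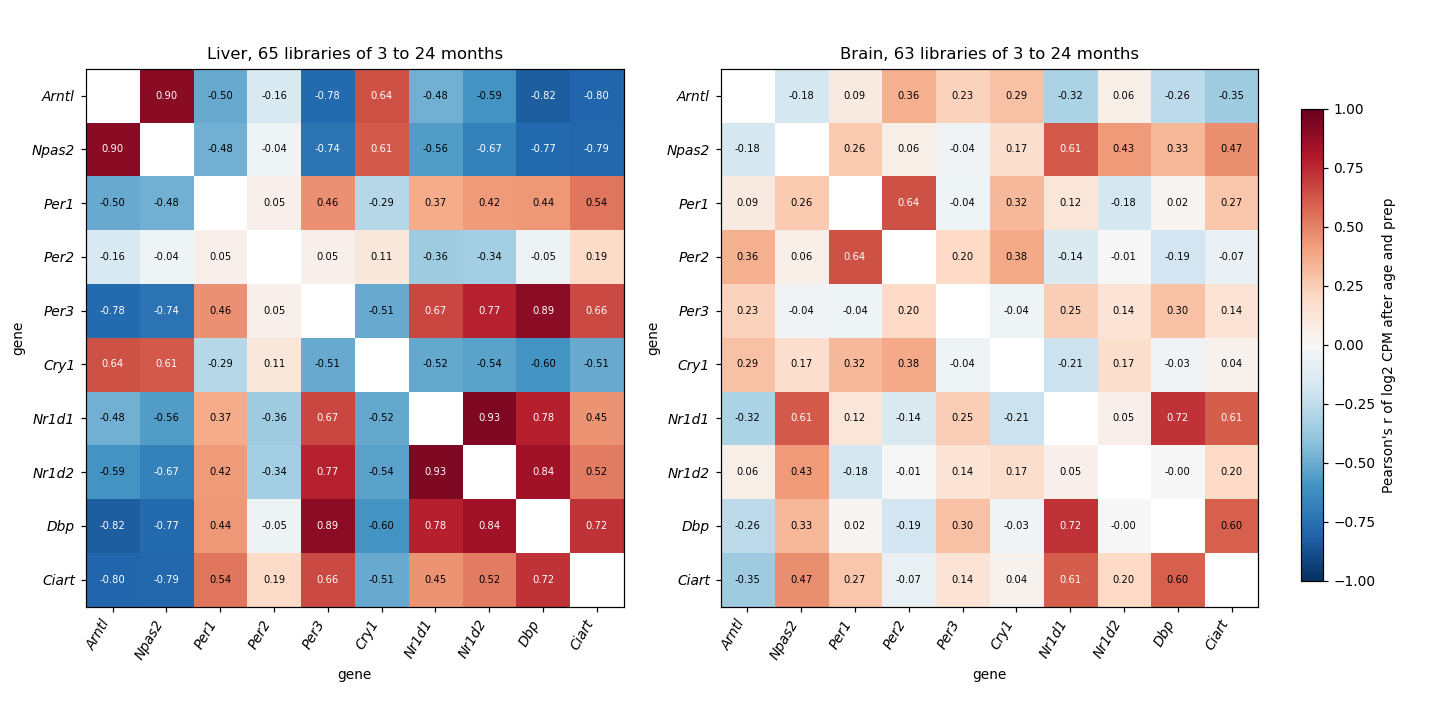
Pearson's r of log2 CPM, as deviations from the age and prep means, for each pair of clock genes over 65 livers (left) and 63 brains (right) of 3 to 24 months, with red for positive and blue for negative values. The liver shows Arntl, Npas2 and Cry1 against Per3, Nr1d1, Nr1d2, Dbp and Ciart, with values from -0.82 to 0.93, and the brain shows few strong values.

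Outside the clock lists, some liver genes were close to the members in their variation between mice of 3 to 24 months. The nearest to Arntl over 65 livers was Gfod1 (r = 0.80), followed by Ppard (0.79), which encodes a nuclear receptor for fatty acids. Ppard was also among the 3 nearest genes of Npas2 (0.81), and with negative sign of Per3 (-0.76), Nr1d1 (-0.76), Nr1d2 (-0.87) and Dbp (-0.87). Npas2 was nearest to Dtx4 (0.87), Nr1d1 to Trib3 (0.87), Per1 to Klf13 (0.77), Per2 to Glyctk (0.81) and Ciart to Asap2 (-0.69). Dbp and Per3 shared Tns2 (0.86 and 0.75) and Jade1 (0.79 and 0.73). In the brain, over 80 libraries of all ages without the 2 that stood apart, Per1 was nearest to Sik1 (0.76), a kinase gene induced by cyclic AMP signals, Nr1d2 to Prrt1 (-0.83), Npas2 to Ccdc136 (0.82) and Dbp to Slc4a7 (-0.77). These values describe likeness in these libraries, and no gene outside the clock lists was among the 3 nearest of the same member in both tissues.

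Other genes of the loop were given by a list of 17. In the liver 16 were tested: 8 rose and 4 fell from 3 to 28 months, and the median change was 0.15 on the log2 scale, beside 0.01 over all genes, of which 61.9% were called. Tef, a relative of Dbp, rose by 1.65 (SE 0.25, adjusted p 5.48e-08). Bhlhe41, a repressor at E-boxes, rose by 1.58 (SE 0.51, adjusted p 0.00529), and Timeless, whose main known role is at replication forks, by 0.85 (SE 0.16, adjusted p 7.47e-06). Nfil3, which competes with DBP for D-boxes, fell by 0.86 (SE 0.21, adjusted p 0.000278). In the brain 3 of 17 rose and 3 fell, where 28.3% of all genes were called, with a median of -0.06 beside 0.01. Bhlhe41 rose by 0.26 in the brain (SE 0.09, adjusted p 0.0153). Nfil3 fell by 0.53 there as well (SE 0.08, adjusted p 1.84e-07), and Rorb by 0.20 (SE 0.08, adjusted p 0.0451), which was not called without the 2 libraries that stood apart (-0.15, adjusted p 0.0523).

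Of 8 clock output genes 5 rose in the liver and 0 fell, where 31.9% of all genes rose, with a median of 0.86 beside 0.01 over all genes. Noct, the gene of Nocturnin, rose by 3.32 (SE 0.27, adjusted p 2.77e-17), and its median was already 113 CPM at 24 months and 142 CPM at 28 months, against 10.8 CPM at 3 months. Usp2, a deubiquitinase gene, rose by 2.97 (SE 0.38, adjusted p 2.68e-10), with medians of 2.21, 1.59 and 6.86 CPM at 3, 24 and 28 months. Por, the electron donor of cytochrome P450 enzymes, rose by 1.29 (SE 0.17, adjusted p 1.35e-09), and Wee1, a cell cycle kinase gene, by 1.03 (SE 0.23, adjusted p 6.2e-05). In the brain, where 7 were tested, Usp2 rose by 0.25 (SE 0.05, adjusted p 0.000268) and Wee1 fell by 0.27 (SE 0.06, adjusted p 0.00071), with the other 5 not called. That share was near the 28.3% of all brain genes called. Without the 2 brain libraries that stood apart 5 of the 17 other loop genes rose and 2 fell, and of the output genes 1 rose and 2 fell, against 34.1% of all genes. Nfil3 (-0.54), Bhlhe41 (0.32), Usp2 (0.21) and Wee1 (-0.22) passed there as well.

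Signals that act on the Per genes from outside the loop were given by 2 further lists. Of the immediate early genes, which cells switch on within minutes of a stimulus, 3 of 8 tested rose in the liver and 0 fell: Egr2 by 1.39, Nr4a1 by 1.27 and Junb by 1.12 (SE 0.40, 0.27 and 0.27, adjusted p 0.00204, 3.22e-05 and 0.000287). Over all liver genes 31.9% rose and 61.9% were called in either direction. In the brain 1 of 10, Arc, fell by 0.52 (SE 0.16, adjusted p 0.00977), where 12.0% of all genes fell. Of 10 genes that respond to glucocorticoids, 4 rose and 2 fell in the liver, a share near the 61.9% of all liver genes called. The metallothioneins Mt1 and Mt2 rose by 4.50 and 4.05 (SE 0.79 and 0.95, adjusted p 1.12e-06 and 0.000161), Fkbp5 rose by 1.25 (SE 0.21, adjusted p 6.96e-07) and Pdk4 fell by 1.03 (SE 0.27, adjusted p 0.000554). In the brain 5 of 10 rose, where 16.3% of all genes did, among them Mt1 by 1.12, Mt2 by 0.96, Sgk1 by 0.67 and Tsc22d3 by 0.35 (SE 0.23, 0.22, 0.15 and 0.13, adjusted p 0.000148, 0.000597, 0.000243 and 0.0389). Without the 2 libraries that stood apart Mt1 and Mt2 rose by 0.50 and 0.43 (adjusted p 7.14e-06 and 0.00133), and Tsc22d3, at 0.14, was not called (adjusted p 0.238). Their part in the differences of the clock genes was not tested.

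Marker RNA of several cell types differed with age in the same livers. All 3 Kupffer cell markers (Clec4f, Vsig4 and Cd5l) rose between 3 and 28 months, from a summed 232 to 779 CPM to 359 to 2886 CPM, and so did all 3 markers each of B cells (8.83 to 53.5 CPM, then 51.6 to 1174 CPM) and of T cells (0.876 to 10.4 CPM, then 3.99 to 26.0 CPM). Of the 3 hepatocyte markers 1 fell, with summed levels of 49457 to 91322 CPM and of 17189 to 105219 CPM. At 24 months all 3 markers of Kupffer cells, of B cells and of T cells were already higher than at 3 months, while none of the 10 clock genes was called. In the brain all 3 red blood cell markers rose (24.8 to 187 CPM, then 28.3 to 571 CPM), 2 of 3 microglia markers rose and 2 of 3 astrocyte markers fell. The 3 neuron markers did not pass, with summed levels of 3494 to 4383 CPM at 3 months and of 1654 to 4694 CPM at 28 months. Pituitary markers, of which 2 were tested and both fell, summed to 0.762 to 643 CPM at 3 months and 0.559 to 9.99 CPM at 28 months. The median of that sum did not fall, at 1.12 CPM at 3 months and 1.14 CPM at 28 months. Without the 2 brain libraries that stood apart all 3 microglia markers rose, and the counts of the other 4 brain lists named here were the same. In bulk RNA the number of these cells and their RNA per cell cannot be told apart. The part of these cells in the results for the clock genes was not tested.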

How the data were processed

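Bulk RNA of brain and liver of the same mice was measured. The authors deposited 1 table of raw counts per tissue, whole numbers for 55471 genes with 1 column per library. Reads were handled with cutadapt 2.8, HISAT2 2.1.0, SAMtools 1.9 and featureCounts of Subread 2.0.1 on GRCm38.p6 (mm10), per the submitters' processing notes; their settings, annotation release and use of strand are not given in the sources used here. Libraries were stranded, enriched for polyadenylated RNA and read as pairs of 100 bases, per the labels.

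Levels are CPM of TMM-scaled libraries. From these counts, ages were compared per tissue with edgeR 4.0.16 (quasi-likelihood test, filterByExpr, TMM, terms for age and prep) over all genes tested, with Benjamini-Hochberg adjustment and a threshold of 0.05. Tissues were compared in 1 edgeR fit of both. Spread used limma 3.58.1 and log2 CPM (prior count 2). Correlations used residuals of that log2 CPM after age and prep and 100000 permutations within age (20000 for alternatives within a tissue), adjusted over all genes tested. Fold changes are log2, and an SE is the log2 fold change over the square root of F. The fits of age and of both tissues, the spread and the correlations were tested on simulated data. Exonic lengths, overlaps and markers rest on symbols and the GRCm38 annotation in the reference used here; 55144 of 55471 rows had a symbol.

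The 10 members and all lists were chosen with earlier results of these data known. Named from the 4 other lists were the called genes with the largest change, at most 4 per list and tissue, and for likeness the 3 genes of highest absolute r with a mean of at least 1 CPM. Some genes that these rules name are not reported here. Alternatives were other scaling (RLE), no filter, DESeq2 1.42.0, voom with quality weights, single preps, only the ages compared, a replicate block, each library left out and, for correlations, Spearman's rho, another prior count and unadjusted levels. Leaving out the 2 brain libraries that stood apart and using mice of 3 to 24 months were chosen after seeing the data. Same-numbered brain and liver libraries of an age come from 1 mouse per the labels, so the tissue comparison was also fitted with the mouse as a block; over all genes the median correlation of the tissues within mice was -0.0051. Numbers shared between ages name different mice. The labels name separate mice, so the p-values measure the spread between mice.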

Additional observations from a re-analysis of the deposited data

Results flagged for a closer look

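The change from 3 to 28 months differed between liver and brain, by a test of the difference itself (edgeR, 1 fit of both tissues), for 9 of the 10 genes, where 49.2% of all genes passed. The liver change minus the brain change was -0.65 for Arntl, -1.34 for Npas2, 1.81 for Per1, 0.71 for Per2, 3.55 for Per3, -0.72 for Cry1, 1.01 for Nr1d2, 2.52 for Dbp and 3.35 for Ciart, on the log2 scale. For Cry1 the change was called in both tissues with opposite sign, at -0.54 in the liver and 0.22 in the brain. For Arntl, Per1, Dbp and Ciart both tissues had a called change in the same direction, and the liver's was the larger.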

How the results depend on the processing

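Depth limited Ciart most, at 3 counts or fewer in 3 livers of 3 months and 2 of 15 months. RLE scaling changed none of the counts of members by over 1.5 times. The mouse block left all 9 calls of the tissue by age difference, and RLE, no filter, DESeq2 and leaving out the 2 brain libraries also gave 9; preps 2 and 3 alone gave 3 each, against 6.35% and 31.4% of all genes. Replicate numbers shared between ages name different mice; with them as a replicate block the liver count between 9 and 3 months was 0 in place of 1, and no other count moved by over 1.5 times.

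Brain counts of members: between 24 and 3 months 1 with only those ages, with voom and without the 2 libraries; between 28 and 3 months 0 and 1 in preps 2 and 3; between 28 and 24 months 0 with only those ages and in preps 2 and 3, 6 with voom, 3 with DESeq2 and 5 without the 2 libraries; over all ages 2, 0 and 0 in preps 1, 2 and 3. Liver counts: between 9 and 3 months 0 without the filter, with only those ages, with voom and in each prep; between 24 and 3 months 1 in prep 3; between 28 and 3 months 3 in preps 2 and 3; between 24 and 15 months 0 without the filter and in each prep; between 28 and 24 months 5, 0 and 3 in preps 1, 2 and 3; over all ages 3 and 4 in preps 2 and 3. Shares of all genes fell in most single preps too: for 28 against 3 months they were 1.96% and 6.36% in brain preps 2 and 3 and 15.6% and 42.2% in liver preps 2 and 3, for 28 against 24 months 0% in brain preps 2 and 3 and 16.2%, 0% and 1.24% in liver preps 1, 2 and 3, and over all ages 4.84%, 1.42% and 1.99% in brain preps 1, 2 and 3 and 28.4% and 40.5% in liver preps 2 and 3. For brain 28 against 24 months they were 0.0111% with only those ages, 4.80% with voom and 2.27% with DESeq2, and for liver 9 against 3 months 1.45% without the filter, 2.40% with only those ages and 2.03% with voom. For liver 9 against 3 months the shares were 0.0773%, 0.0764% and 0.0188% in preps 1, 2 and 3, and for 24 against 3 months 33.4% in prep 3. For liver 24 against 15 months they were 17% without the filter and 0.0193%, 16.7% and 8.09% in preps 1, 2 and 3. The cause was not tested.

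The brain change between 28 and 3 months reversed for Npas2 in preps 2 and 3 (-0.057 and -0.18), Per1 in prep 2 (-0.0055), Per2 in prep 1 (0.011), Per3 in prep 3 (-0.16), Nr1d1 in prep 2 (-0.026) and Nr1d2 in prep 3 (-0.13), and the liver change for Per2 in prep 3 (-0.20). The brain spread with the age mean as the centre gave 1 member.

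The brain and liver correlation within mice was called for 0 members in each prep, among mice of 28 months and in each prep of 3 to 24 months, and for 1, Per3, at 28 months without replicate 15. Of all genes 0.0428%, 0.0214% and 0.0214% were called in preps 1, 2 and 3 and 0.0641% at 28 months. In preps 1, 2 and 3 of 3 to 24 months 0%, 0.0356% and 0% were called, and 0.385% at 28 months without replicate 15. In single preps of 3 to 24 months r reversed for Npas2 in prep 1 (-0.022), Per1 in prep 3 (-0.16), Per3 in prep 2 (-0.11) and Nr1d2 in prep 1 (-0.078). Brain pairs numbered 1, 2 and 4 in preps 1, 2 and 3, 9 at 3 to 24 months, 8 there without replicate 13, 7 there with rho, 1, 1 and 0 there in single preps and 1 at 28 months without replicate 15, in place of 19 over all ages. Liver pairs numbered 10, 4 and 9 in single preps and 0, 1 and 0 there at 3 to 24 months, in place of 39. The share of all genes correlated with a member ran from 2.44% to 21.3% over all livers. In liver preps 1, 2 and 3 it was 0% to 0.899%, 0% to 1.08% and 0% to 6.12%. In the brain it was 1.38% to 67.2% over all ages, and 0% to 31.7%, 0% to 28.9% and 0% to 16.5% in preps 1, 2 and 3. Single libraries were not left out of the fits of both tissues, of spread or of correlations, beyond those named.

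Leaving out single libraries gave 5 to 7 brain members between 28 and 3 months, 1 to 5 between 28 and 24, 0 to 1 between 24 and 3 and 4 to 9 over all ages. In the liver it gave 8 to 9, 8, 0 and 9, and 0 to 1 between 9 and 3 and between 24 and 15 months. Fold changes between 28 and 3 months ranged in the brain from -0.29 to -0.20 (Arntl), -0.011 to 0.068 (Npas2), 0.16 to 0.23 (Per1), -0.24 to -0.16 (Per2), 0.03 to 0.14 (Per3), 0.18 to 0.25 (Cry1), 0.17 to 0.22 (Nr1d1), 0.07 to 0.17 (Nr1d2), 0.34 to 0.46 (Dbp) and 0.69 to 0.78 (Ciart). In the liver they ranged from -1.05 to -0.86, -1.54 to -1.28, 1.82 to 2.16, 0.34 to 0.59, 3.35 to 3.86, -0.63 to -0.44, 0.37 to 0.73, 1.02 to 1.25, 2.72 to 3.86 and 3.80 to 4.32 for the same genes in that order.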
